A study of Mus musculus with 12 samples.

Results

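The 45 genes described here encode proteins that sense DNA damage or repair it, and they were chosen by symbol from 21859 genes measured in mouse spermatogonia. All 45 were in the table, 44 under the symbol used and *H2afx* under its newer name *H2ax*, and all 45 passed the limit on low values. They were sorted by textbook role into 8 repair pathways, by a rule that uses names and no measured value, though earlier results of these data were known. RNA was measured in 12 libraries, of which 5 came from control and 7 from surgically cryptorchid testes, taken 10 days after surgery. The mice were GFRa1-EGFP males operated on at 8 to 10 weeks of age, in which EGFP is driven by the *Gfra1* locus and marks cells that carry the GDNF receptor. The left testis was fixed to the abdominal wall and the right testis, left in the scrotum, was the control, which GEO labels as WT. GFRa1-EGFP+/KIT- cells, the undifferentiated spermatogonia that include the stem cells, were sorted from both sides, so both groups carry the EGFP allele. Tissue was digested at a higher temperature for the cryptorchid than for the control testes, and this difference and the surgery cannot be told apart. The sources used here do not tell which libraries came from the same mouse, and p-values measure the spread between these libraries only.

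DNA damage is met by several systems that share a start and differ in the lesion they mend. The kinases ATM and ATR sense breaks and stalled forks and signal through CHK2 and CHK1, and histone H2AX is phosphorylated along the chromatin beside a break. Ends are then trimmed for homologous recombination, which copies the sister chromatid, or are joined directly by non-homologous end joining, while base excision, mismatch and nucleotide excision repair mend damaged or mispaired bases on 1 strand. In the testis, a mutation left in a germline stem cell can be passed on to sperm, and a testis kept at body temperature is known for loss of germ cells.

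Whole reads were recovered from the deposited log2 RPM values (RPM, reads scaled to a common library total). Reads on genes ranged from 4511730 to 24345368 in control and from 3306771 to 20027902 in cryptorchid libraries, and the 45 genes had at least 11 reads in every library. Replicates 1 to 3 of both groups stood apart from replicates 4 and above, with 74.5% to 94.0% against 94.8% to 99.9% of the implied total on genes, so differences are also given within each of these sets. Control replicate 3 and cryptorchid replicate 3 were low in short transcripts, with median deviations of -0.92 and -0.90 (log2) from the gene mean in the shortest quintile of all genes. Markers of the sorted cell type were present in every library, with a summed level over 6 genes of 905 to 1477 RPM in control and 1099 to 1769 RPM in cryptorchid libraries. Summed over 6 genes, spermatocyte markers were at 257 to 375 RPM in control and 340 to 513 RPM in cryptorchid libraries. Their medians were 344 and 434 RPM. Markers of differentiating spermatogonia (5 genes) were at 161 to 345 RPM and 203 to 385 RPM in the same order. Summed over 5 genes, spermatid markers were at 466 to 2510 RPM in control and 11.6 to 1649 RPM in cryptorchid libraries, and 4 endothelial markers at 3.64 to 18.4 RPM and 12.5 to 35.1 RPM. *Amh* of Sertoli cells, *Cyp11a1*, *Hsd3b1* and *Cyp17a1* of Leydig cells, *Acta2* of myoid cells and *Cd3e* and *Cd3g* of lymphocytes had no reads in 6 or more libraries. Other markers of these types had reads. Summed over 6 genes, Sertoli cell markers were at 17.1 to 52.7 RPM in control and 13.3 to 47.1 RPM in cryptorchid libraries. Reads were found in every library for 4 of the 6. Leydig cell markers (5 genes) were at 8.64 to 15.5 RPM and 5.29 to 47.8 RPM in the same order. Those of myoid cells (4 genes) were at 0.909 to 15.2 RPM and 0.476 to 12.1 RPM. The part of these cell types in the results below was not tested. In bulk libraries fewer cells of a type and less RNA per cell cannot be told apart.

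None of the 45 genes met the study's call of a 2-fold change with an unadjusted *P*-value under 0.05, a call that 5.92% of the 16932 genes tested met (limma, two-sided). At the *P*-value alone, 4 genes passed, all of them higher in cryptorchid spermatogonia. They were *Rad51c* and *Xrcc4*, partner proteins in homologous recombination and in end joining, *Blm*, a helicase, and *Rbbp8*, which encodes the end-resection factor CtIP. That is 8.89% of the 45 genes, against 9.48% of all genes tested in both directions, 5.67% higher and 3.82% lower, so the share that passed was close to the background. No adjusted *P*-value was under 0.05 for any of the 45 genes, whereas 2 of all genes tested passed (0.0118%), and the lowest among the 45 was 0.421. Control and cryptorchid values overlapped for all 45, while 0.839% of all genes tested had groups that did not overlap.

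The differences were small. The log2 difference, cryptorchid minus control, was positive for 30 of the 45 genes and negative for 15. Its median was 0.22 beside 0.10 over all genes tested, of which 56.7% were positive. Replicates 1 to 3 made up a larger share of the control than of the cryptorchid libraries, and this fit had no term for the sets. Within replicates 1 to 3 the median was 0.16 beside 0.06, and within replicates 4 and above 0.13 beside 0.01. With a term for the 2 sets, 26 of the 45 genes were positive. For 37 genes the log2 difference over all 12 libraries was under 0.5 in size. For 19 the 95% interval lay within 2-fold in both directions, as it did for 25.3% of all genes tested. The interval reached a 2-fold increase for 20 genes and a 2-fold decrease for 8, so these intervals do not leave out a change of that size. By an exact two-sided rank sum permutation test over the 12 libraries, 8 of the 45 had an unadjusted *P*-value under 0.05, *H2ax*, *Atrx*, *Brca1* and *Palb2* besides the 4 above, against 9.63% of all genes tested.

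**Figure D1:**
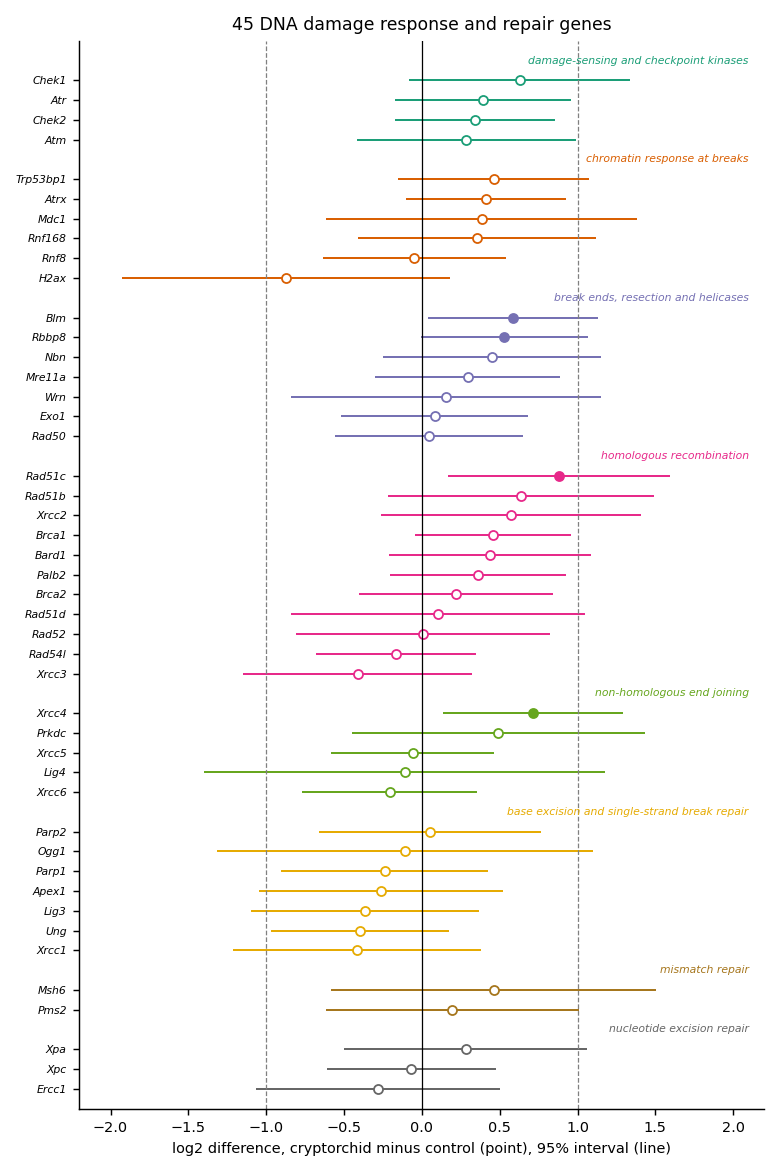
Log2 difference of each of the 45 genes, cryptorchid minus control (horizontal axis), with its 95% interval from limma, grouped by repair pathway. Filled points have an unadjusted *P*-value under 0.05, dashed lines mark 2-fold, and no interval lies wholly beyond a dashed line. The 4 kinases and the 7 resection genes are to the right of 0, and 6 of the 7 base excision genes are to the left.

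The sign of the difference was uneven between pathways. All 4 kinases, all 7 genes of break ends and resection, 9 of 11 homologous recombination genes and 4 of 6 chromatin genes were positive, whereas 6 of 7 base excision genes were negative. End joining (2 of 5 positive), mismatch repair (2 of 2) and nucleotide excision repair (1 of 3) were the other groups. Without control replicate 3 the counts were 4 of 4 kinases, 5 of 7 resection genes, 7 of 11 homologous recombination genes, 4 of 6 chromatin genes, 0 of 2 mismatch repair genes and 0 of 3 nucleotide excision repair genes. Within replicates 4 and above, 5 of 7 resection genes were positive, and after the correction for transcript length given below 4 of 7 were, with a median of 0.13 in place of 0.30. These are counts of signs, most of them from genes that did not pass the test, and the pathways also differed in transcript length.

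**Figure D2:**
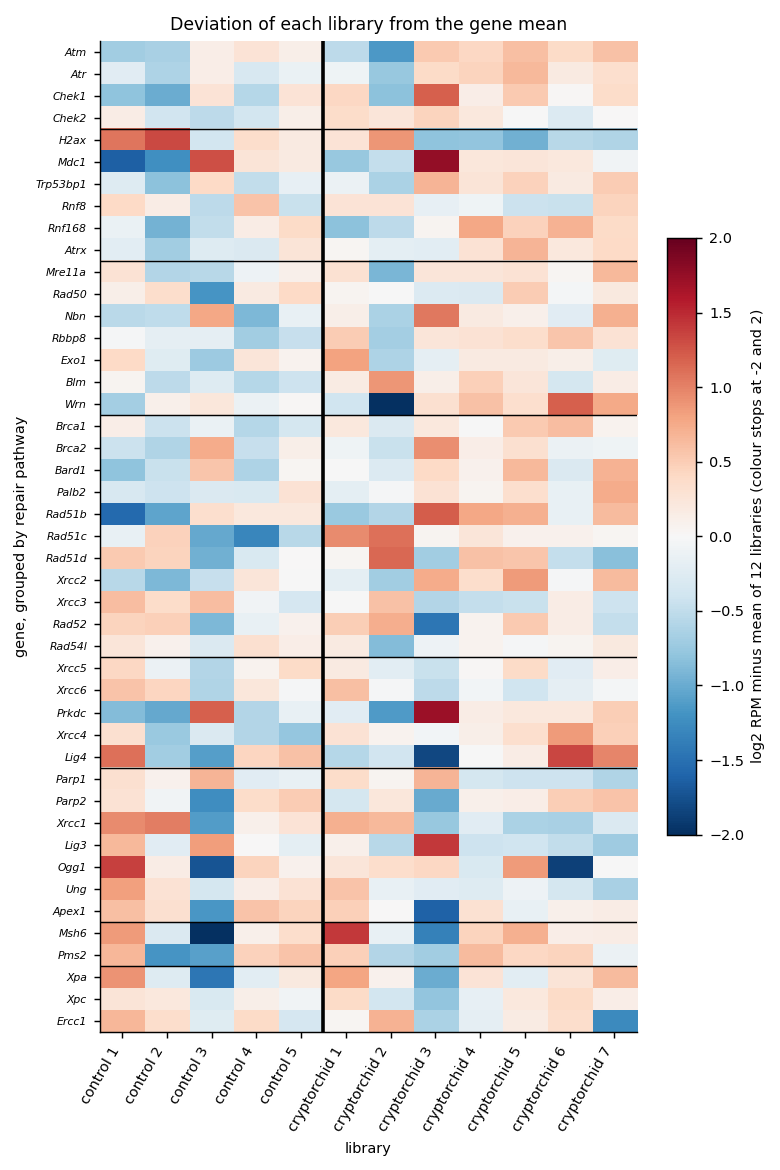
Deviation of each library (columns) from the mean of 12 libraries for each of the 45 genes (rows), in log2 RPM; red is above and blue below the gene mean. Columns of control replicate 3 and cryptorchid replicate 3 resemble each other, with *Mdc1* and *Prkdc* high and *Msh6*, *Apex1* and *Xpa* low in both.

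For the genes with the lowest *P*-values, the bases before their start sites are shown, since what sequence they share was not part of the choice. The sequences are 120 bases directly upstream of each RefSeq start (GRCm38.p6), on the gene's strand from 5′ to 3′. Capitals mark the GC box (GGGCGG, either strand), which SP factors bind, and the cAMP response element (TGACGTCA).
Rad51c, inner start, chr11:87404507-87404626, minus strand: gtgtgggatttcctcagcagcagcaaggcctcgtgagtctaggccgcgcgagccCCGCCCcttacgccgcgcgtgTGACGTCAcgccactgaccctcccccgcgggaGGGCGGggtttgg
Rad51c, outer start, chr11:87404955-87405074, minus strand: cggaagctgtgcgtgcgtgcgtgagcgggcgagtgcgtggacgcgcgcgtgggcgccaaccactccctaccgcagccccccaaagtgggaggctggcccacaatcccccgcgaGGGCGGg
Xrcc4, chr13:90089609-90089728, minus strand: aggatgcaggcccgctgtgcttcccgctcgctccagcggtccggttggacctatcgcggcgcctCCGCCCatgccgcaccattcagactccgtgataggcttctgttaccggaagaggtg
Blm, chr7:80534999-80535118, minus strand: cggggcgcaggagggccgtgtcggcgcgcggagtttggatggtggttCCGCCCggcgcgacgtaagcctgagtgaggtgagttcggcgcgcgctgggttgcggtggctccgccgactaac
Each gene had at least 1 GC box in its window, and the inner start of *Rad51c* also had a cAMP response element. Of the 45 genes, 35 had a promoter in the RefSeq table, and 250 bases before the start were searched on both strands. The GC box was in 68.6% of these 35 and in 57.1% of 13114 tested genes with a promoter, and the CCAAT letters of NF-Y were in 51.4% and 40.1%. The E2F letters (TTTGGCGC, TTTCCCGC, TTTGGCGG or TTTCCCGG), where cell cycle factors bind, were in 5 of the 35, *Bard1*, *Brca2*, *Chek2*, *Mdc1* and *Xrcc6*, or 14.3% against 4.88% of all. The cAMP response element was in 2 of the 35, *Rad51c* and *Brca2* (5.71% against 2.71%), the paired heat shock letters GAANNTTC in *Rad51b* alone (2.86% against 6.44%), and the decamer of p53 in none (against 7.23%). The E2F and GC box letters can overlap, and a match is a description of the letters.

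Among the damage-sensing and checkpoint kinases, all 4 genes were higher on average in cryptorchid spermatogonia and none passed the test. *Chek1*, the kinase that holds the cell cycle when replication stalls, was at 5.22, 5.04, 6.30, 5.46 and 6.31 log2 RPM in control replicates 1 to 5. Its 7 cryptorchid libraries spanned 5.21 to 7.23, with a median of 6.40. The levels of 4 cryptorchid libraries were above every control, cryptorchid replicate 2 was among the low controls, and the groups overlapped. The log2 difference was 0.63 (SE 0.34, 95% interval -0.08 to 1.33), with an unadjusted *P*-value of 0.077 and an adjusted one of 0.58 (limma).

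*Atr*, the kinase upstream of *Chek1*, was at 7.39, 7.0, 7.75, 7.29 and 7.49 log2 RPM in the 5 controls and at 6.86 to 8.26, with a median of 7.95 in cryptorchid libraries. All but cryptorchid replicates 1 and 2 were above the highest control, and replicate 2 was below the lowest. On average *Atr* differed by 0.39 (SE 0.27, adjusted *P*=0.673, limma). *Atm*, which responds to double-strand breaks, was at 6.66, 6.71, 7.49, 7.64 and 7.49 log2 RPM in control and at 6.21 to 7.96, with a median of 7.79 in cryptorchid libraries. Replicates 1 and 2 of both groups were the 4 lowest libraries, 5 cryptorchid libraries were above all controls, and the log2 difference was 0.29 (SE 0.33, adjusted *P*=0.823, limma). *Chek2*, the kinase ATM activates, was at 5.94, 5.40, 5.26, 5.42 and 5.90 log2 RPM in control and at 5.51 to 6.23, with a median of 5.99 in cryptorchid libraries. Its values overlapped, with 4 cryptorchid libraries above the highest control and a log2 difference of 0.34 (SE 0.24, adjusted *P*=0.69, limma). Within replicates 1 to 3 the differences were 0.77 for *Chek1*, 0.08 for *Atr*, 0.03 for *Atm* and 0.60 for *Chek2* (log2). Within replicates 4 and above they were 0.41, 0.63, 0.30 and 0.11 in the same order, so the sign was positive in both sets for all 4 genes. Per kilobase of transcript, the mean level of the 4 genes lay between 14.4 and 21.5 RPM in control and between 19.8 and 28.2 RPM in cryptorchid libraries.

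Of the 6 genes of the chromatin response at breaks, *H2ax* had the most negative and *Trp53bp1* the most positive difference, and none passed the test. *H2ax*, whose product is the histone variant phosphorylated beside breaks, was at 3.97, 4.22, 2.53, 3.24 and 3.07 log2 RPM in control replicates 1 to 5. Cryptorchid libraries were at 1.93 to 3.78, with a median of 2.30. The values of 5 cryptorchid libraries were below every control, and cryptorchid replicates 1 and 2 were within the control range. Its log2 difference was -0.87 (SE 0.50, 95% interval -1.92 to 0.17), the largest in size in either direction after *Rad51c*, with an unadjusted *P*-value of 0.096 in limma and 0.048 in the exact rank sum test. It was -0.56 within replicates 1 to 3 and -0.99 within replicates 4 and above, on 13 to 536 reads a library. Without control replicate 3 it was -1.09, and without that library or without cryptorchid replicate 2 *H2ax* met the 2-fold call. With control replicate 3 and cryptorchid replicate 3 both left out, *H2ax* did not meet it.

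*Trp53bp1* encodes 53BP1, which protects ends from resection, and was at 8.10, 7.53, 8.75, 7.86 and 8.18 log2 RPM in control libraries. In cryptorchid libraries it spanned 7.72 to 9.04, with a median of 8.61. The highest libraries of each group were control replicate 3 and cryptorchid replicate 3, 3 cryptorchid libraries were above every control, and the log2 difference was 0.46 (SE 0.29, adjusted *P*=0.642, limma). *Atrx*, a chromatin remodeller encoded on the X chromosome, differed by 0.41 (SE 0.24, adjusted *P*=0.618 in limma and *P*=0.048 in the exact rank sum test), with 3 cryptorchid libraries above the highest control. *Mdc1*, the adaptor that binds phosphorylated H2AX, differed by 0.38 (SE 0.47), and its levels ran from 4.68 to 7.60 log2 RPM in control and from 5.55 to 8.06 in cryptorchid libraries. The ubiquitin ligases *Rnf168* and *Rnf8*, which act after MDC1, differed by 0.35 (SE 0.36) and -0.05 (SE 0.28).

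The 7 genes of break ends and resection held 2 of the 4 that passed the unadjusted test. *Blm*, the helicase mutated in Bloom syndrome, was at 5.77, 5.19, 5.45, 5.15 and 5.30 log2 RPM in control replicates 1 to 5. Cryptorchid libraries were at 5.37 to 6.60, with a median of 5.88. All cryptorchid libraries but replicate 6 were above the highest control, replicate 2 was the highest, and only replicate 6 lay among the controls. On average *Blm* differed by 0.58 (SE 0.26, 95% interval 0.05 to 1.12), a 1.5-fold higher level, with an unadjusted *P*-value of 0.035 and an adjusted one of 0.483 (limma). Within replicates 1 to 3 it was 0.63 and within replicates 4 and above 0.62.

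*Rbbp8* encodes CtIP, which starts resection with the MRE11 complex, and was at 6.79, 6.63, 6.64, 6.12 and 6.36 log2 RPM in the controls. Cryptorchid libraries were at 6.15 to 7.37, with a median of 7.11. Of these, 6 were above every control and replicate 2 was at the low end of the controls. The difference in means was 0.53 (SE 0.25, 95% interval 0.00 to 1.06, unadjusted *P*=0.049, adjusted *P*=0.526, limma), or 1.44-fold. The 2 sets differed in size here, with 0.15 within replicates 1 to 3 and 0.95 within replicates 4 and above, and this contrast between sets was not tested. Without cryptorchid replicate 2, *Rbbp8* differed by 0.68 (unadjusted *P*=0.00696, adjusted *P*=0.281, limma), and with limma's array weights its adjusted *P*-value was 0.045.

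The other 5 genes of the group did not pass. The MRE11 complex, which binds and trims ends, differed by 0.30 (SE 0.28) for *Mre11a*, 0.04 (SE 0.28) for *Rad50* and 0.45 (SE 0.33) for *Nbn*. Of these *Nbn*, which recruits ATM, was highest in control replicate 3 (6.74 log2 RPM) and cryptorchid replicate 3 (7.02 log2 RPM). *Exo1*, an exonuclease of resection and mismatch repair, differed by 0.08 (SE 0.28), and *Wrn*, the helicase of Werner syndrome, by 0.15 (SE 0.47). *Wrn* turned sign between the sets, from -0.69 in replicates 1 to 3 to 0.77 in replicates 4 and above, and cryptorchid replicate 2 was at 2.71 log2 RPM, below all other libraries.

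**Figure D3:**
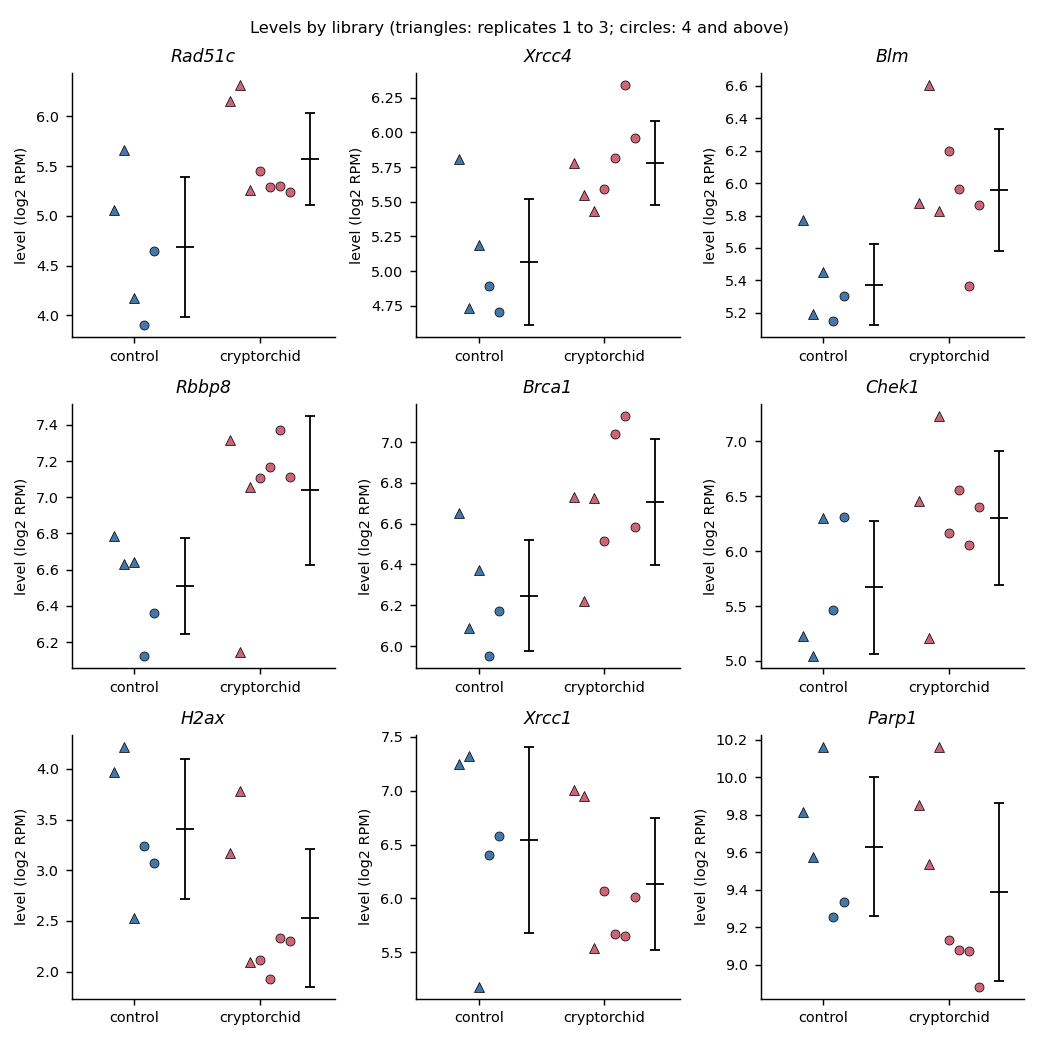
Level in log2 RPM (vertical axes, which do not start at 0) of 9 genes in each control and cryptorchid library; triangles are replicates 1 to 3 and circles 4 and above, and the bars beside them are mean ± SD (n = 5 and n = 7). Cryptorchid libraries lie mostly above the controls for *Rad51c*, *Xrcc4*, *Blm* and *Rbbp8* and mostly below them for *H2ax*, with overlap in every panel.

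Homologous recombination, with 11 genes, held the largest positive difference. *Rad51c* encodes a subunit of the BCDX2 and CX3 complexes, which act on resected ends and on recombination intermediates (GRCm38, chr11:87376645-87404954, minus strand). It was at 5.06, 5.66, 4.18, 3.90 and 4.65 log2 RPM in control replicates 1 to 5. Cryptorchid libraries were at 5.24 to 6.31, with a median of 5.30, a narrow range apart from the high replicates 1 and 2. Control replicate 2 reached into the cryptorchid range and the other 4 controls were below every cryptorchid library. The log2 difference was 0.88 (SE 0.34, 95% interval 0.17 to 1.59), a 1.84-fold higher level, with an unadjusted *P*-value of 0.018 and an adjusted one of 0.425 (limma). Of all 45 genes it came closest to the call of 2-fold, which it met within replicates 4 and above, where it was 1.05, beside 0.94 within replicates 1 to 3. Per kilobase of transcript its mean level was 7.21 RPM in control and 12.6 RPM in cryptorchid libraries.

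*Brca1*, the scaffold that directs breaks to recombination, was at 6.65, 6.09, 6.37, 5.95 and 6.17 log2 RPM in control and at 6.22 to 7.13, with a median of 6.73 in cryptorchid libraries. Control replicate 1 lay within the cryptorchid range, and 4 cryptorchid libraries were above all controls. *Brca1* differed by 0.46 (SE 0.24, adjusted *P*=0.56 in limma and *P*=0.03 in the exact rank sum test). *Brca2*, whose product acts on resected ends, was at 7.42, 7.25, 8.58, 7.39 and 7.96 log2 RPM in control and at 7.40 to 8.77, with a median of 7.77 in cryptorchid libraries. Replicate 3 was the highest in both groups, 1 cryptorchid library was above all controls, and the log2 difference was 0.22 (SE 0.29, adjusted *P*=0.851, limma). *Xrcc3*, the partner of RAD51C in the CX3 complex, had the most negative difference of the group. Its level was 4.71, 4.47, 4.72, 4.03 and 3.76 log2 RPM in control and 3.51 to 4.68, with a median of 3.68 in cryptorchid libraries. Of the cryptorchid libraries, 4 were below every control, and the log2 difference was -0.41 (SE 0.35, adjusted *P*=0.74, limma).

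The genes of the BCDX2 and CX3 complexes gave values on both sides. Besides *Rad51c* and *Xrcc3*, *Rad51b* differed by 0.63 (SE 0.40), *Xrcc2* by 0.57 (SE 0.39) and *Rad51d* by 0.10 (SE 0.45), so 4 of the 5 were positive and 1 passed the unadjusted test. *Bard1*, the partner of BRCA1, differed by 0.44 (SE 0.31). *Palb2*, which links BRCA1 to BRCA2, differed by 0.36 (SE 0.27, exact rank sum *P*=0.03), and 3 cryptorchid libraries were above the highest control. *Rad52*, a strand-annealing protein, differed by 0.01 (SE 0.38), and *Rad54l*, the motor that aids strand exchange, by -0.17 (SE 0.24).

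Non-homologous end joining had 5 genes, of which *Xrcc4* passed the unadjusted test. XRCC4 is the scaffold that holds DNA ligase IV at the ends. *Xrcc4* was at 5.81, 4.73, 5.19, 4.89 and 4.71 log2 RPM in control replicates 1 to 5, and cryptorchid libraries were at 5.43 to 6.34, with a median of 5.78. Control replicate 1 lay in the cryptorchid range, and the other 4 controls were below every cryptorchid library. Its log2 difference was 0.72 (SE 0.27, 95% interval 0.15 to 1.29), a 1.64-fold higher level, with an unadjusted *P*-value of 0.017 and an adjusted one of 0.421 (limma). It was 0.34 within replicates 1 to 3 and 1.13 within replicates 4 and above, where it met the 2-fold call. Its exons overlap 112 bases of *Tmem167* on the other strand, and since the counting strand is not stated, reads there cannot be assigned.

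The partner of XRCC4, *Lig4*, had the lowest level per kilobase of the 45 genes (1.53 RPM in control and 1.50 RPM in cryptorchid libraries, 15 to 330 reads a library) and differed by -0.11 (SE 0.61). *Prkdc* encodes DNA-PKcs, the kinase of the pathway, and was at 8.11, 7.95, 10.17, 8.39 and 8.83 log2 RPM in control libraries. It was at 7.84 to 10.69, with a median of 9.19 in cryptorchid libraries. Replicate 3 of each group was the highest of its group, at 10.17 and 10.69 log2 RPM, and the log2 difference was 0.49 (SE 0.45, adjusted *P*=0.761, limma). *Xrcc6*, which encodes the end-binding protein Ku70, was at 8.01, 7.88, 6.84, 7.68 and 7.42 log2 RPM in control and at 6.92 to 8.05, with a median of 7.39 in cryptorchid libraries. The groups covered much the same range, and the log2 difference was -0.21 (SE 0.27, adjusted *P*=0.842, limma). Its partner Ku80, encoded by *Xrcc5*, differed by -0.06 (SE 0.25, 95% interval -0.57 to 0.46).

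Base excision and single-strand break repair was the group with the most negative differences, at a median of -0.26 over 7 genes, and no gene passed the test. *Parp1*, which senses strand breaks and builds poly(ADP-ribose), had the highest level per kilobase of the 45 genes (210 RPM in control and 182 RPM in cryptorchid libraries). It was at 9.81, 9.58, 10.16, 9.25 and 9.33 log2 RPM in control and at 8.88 to 10.16, with a median of 9.13 in cryptorchid libraries. The 4 cryptorchid libraries of replicates 4 and above were below every control, and cryptorchid replicates 1 to 3 were within the control range. The log2 difference was -0.24 (SE 0.31, adjusted *P*=0.848, limma), with -0.25 within replicates 4 and above and about 0 within replicates 1 to 3.

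*Xrcc1*, the scaffold of single-strand break repair, was at 7.25, 7.32, 5.18, 6.40 and 6.58 log2 RPM in control libraries. It was at 5.54 to 7.01, with a median of 6.01 in cryptorchid libraries. Control replicate 3 was the lowest of all 12, and cryptorchid replicates 1 and 2 were near the high controls. *Xrcc1* differed by -0.42 (SE 0.37, adjusted *P*=0.759, limma), and without control replicate 3 it was -0.76, with an adjusted *P*-value of 0.358 (limma). *Parp2*, the second of the break-sensing polymerases, was the positive exception at 0.05 (SE 0.34). It was at 6.56, 6.20, 5.03, 6.63 and 6.77 log2 RPM in control and at 5.25 to 6.83, with a median of 6.39 in cryptorchid libraries, with replicate 3 lowest in both groups. *Lig3*, the ligase that works with XRCC1, differed by -0.37 (SE 0.35), and 5 cryptorchid libraries were below every control while cryptorchid replicate 3 was above them all. The glycosylases *Ung*, which removes uracil, and *Ogg1*, which removes oxidised guanine, differed by -0.40 (SE 0.27) and -0.11 (SE 0.57). *Apex1*, the endonuclease that cuts at abasic sites, differed by -0.26 (SE 0.37). Its exons overlap 877 bases of *Pip4p1* on the other strand, in a transcript of 1239 bases, and reads there cannot be assigned. Negative differences were counted for 6 of the 7 genes within replicates 1 to 3, for all 7 within replicates 4 and above, and for all 7 without control replicate 3, when the median was -0.55.

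Mismatch and nucleotide excision repair gave no gene that passed. *Msh6*, which recognises mispaired bases, was at 7.42, 6.28, 4.20, 6.66 and 6.92 log2 RPM in control and at 5.21 to 7.97, with a median of 6.71 in cryptorchid libraries. Replicate 3 was the lowest of each group, and the log2 difference was 0.46 (SE 0.49, adjusted *P*=0.803, limma), or -0.07 without control replicate 3. *Pms2*, which nicks the strand to be replaced, differed by 0.20 (SE 0.38), or -0.05 without that library. *Xpa*, which verifies bulky lesions, was at 7.55, 6.40, 5.21, 6.45 and 6.84 log2 RPM in control and at 5.65 to 7.44, with a median of 6.91 in cryptorchid libraries. It had the third highest level per kilobase (82.2 RPM in control and 93.8 RPM in cryptorchid libraries), after *Parp1* and *Apex1*, and a log2 difference of 0.28 (SE 0.37, adjusted *P*=0.848, limma), or -0.04 without control replicate 3. *Ercc1*, part of the nuclease that cuts 5′ of the lesion, was at 5.07, 4.76, 4.16, 4.79 and 4.07 log2 RPM in control and at 3.13 to 5.10, with a median of 4.45 in cryptorchid libraries, with cryptorchid replicate 7 the lowest. Its log2 difference was -0.28 (SE 0.37, adjusted *P*=0.847, limma), and that of *Xpc*, the lesion sensor, was -0.07 (SE 0.26).

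**Figure D4:**
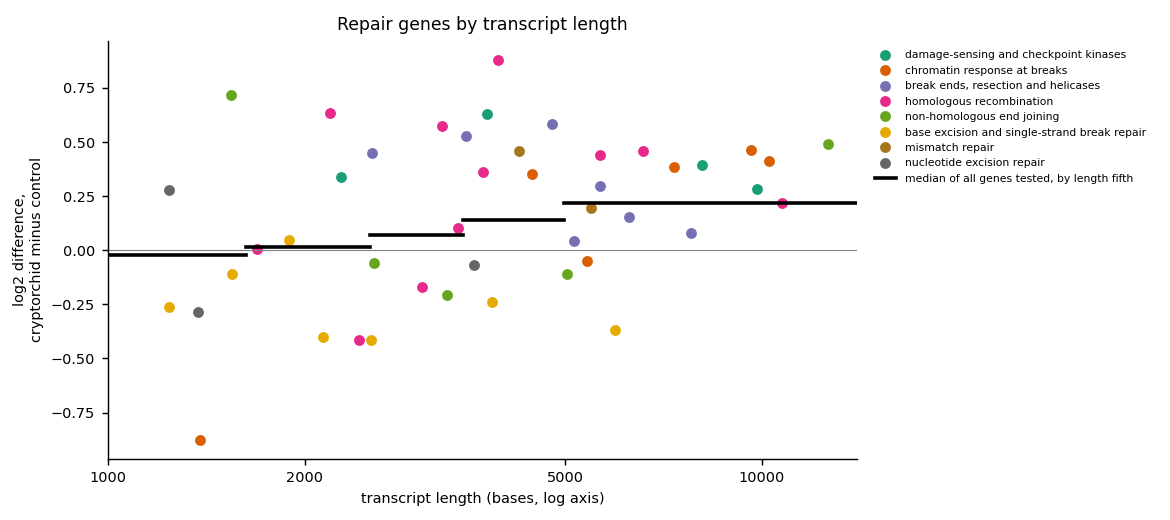
Log2 difference, cryptorchid minus control (vertical axis), of the 45 genes against the length of their transcript (horizontal axis, log scale), coloured by repair pathway; black lines are the medians of all genes tested in each quintile of length. The black lines step from -0.02 in the shortest to 0.22 in the longest quintile, where 17 of the 45 genes lie.

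The 45 genes had longer transcripts than most, with a median of 3797 bases beside 2977.5 for all genes tested with a known length. Across all genes tested, the median log2 difference went from -0.02 in the shortest quintile to 0.22 in the longest, and 14 of the 17 repair genes in the longest quintile were positive, with a median of 0.28. In the shortest quintile 2 of 6 were positive. Spearman's rho between length and difference was 0.33 across the 45 genes and 0.14 across 16758 genes, which share libraries and are not independent replicates. The median length was 5949.5 bases for the kinases and 2136 bases for the base excision genes. With a curve on transcript length taken off each library, the median of the 45 genes was 0.06 beside 0.03 for all genes, 26 were positive, the kinases stood at 0.26 and the base excision genes at -0.34. *Rad51c* and *Xrcc4* passed the unadjusted test after that correction and *Blm* and *Rbbp8* did not.

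Single libraries weighed on these values. The median deviation of the 45 genes from their means ranged from -0.30 in control replicate 3 to 0.25 in control replicate 1, and from -0.22 in cryptorchid replicate 2 to 0.29 in cryptorchid replicate 5. Control replicate 3 was the lowest control for 19 of the 45 genes and the highest for 12. Without it the median difference was -0.04 beside 0.01 over all genes, 22 of the 45 genes were positive beside 50.4% of all genes, and 11 passed the unadjusted test (9 higher, 2 lower) beside 12.9% of all genes. With single libraries left out in turn, 14 of the 45 genes changed sign at least once. Without control replicate 3, 24.4% of the 45 genes thus passed. With cryptorchid replicate 3, which was also low in short transcripts, left out as well, 27 were positive beside 54.3% of all genes. At the unadjusted test 11.1% then passed beside 13.5%, and *H2ax* and *Xrcc1* did not. Within replicates 4 and above, 13 of the 45 genes passed (10 higher and 3 lower), or 28.9% beside 17.3% of all genes, and *Rad51c* and *Xrcc4* met the 2-fold call, as did 7.91% of all genes. Within replicates 1 to 3 none passed, beside 3.74% of all genes. The signs of the difference were the same in both sets for 35 of the 45 genes, 23 positive and 12 negative.

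Of 67 other repair genes, listed by the same pathways, 2 were higher and 1 was lower at the unadjusted test. That was 4.48%, beside 9.48% of all genes tested. The 67 genes had a median log2 difference of 0.14, with 40 positive. Their signs did not follow those of the 45 genes in every pathway. Other base excision genes were positive in 10 of 15 cases, with a median of 0.23 beside -0.26 for the 7 described above, and other homologous recombination genes in 6 of 12, with a median of 0.08 beside 0.36 for the 11 above. *Mlh3*, which acts in mismatch repair and meiotic crossing over, was higher by 0.77 on the log2 scale (SE 0.32, unadjusted *P*=0.029, adjusted *P*=0.469, limma). *Parp3*, a poly(ADP-ribose) polymerase of low level, was higher by 2.02 (SE 0.95, unadjusted *P*=0.049, adjusted *P*=0.526, limma) and was the only one to meet the 2-fold call. It had 0 to 70 reads a library in control and 2 to 94 in cryptorchid libraries. The size of its difference thus rests in part on the value given to a gene without reads. None of the 67 genes had an adjusted *P*-value under 0.05 (limma). The p53 target genes, which respond to damage, had 11 of 16 positive differences and a median of 0.11, with 1 gene higher and 1 lower at the unadjusted test. They were *Sesn1* (log2 difference 0.67, SE 0.30, adjusted *P*=0.502) and *Sesn2* (-0.97, SE 0.33, adjusted *P*=0.362), which encode sestrins, stress-induced brakes on growth signalling (limma). Over all genes tested, 56.7% were positive, the median was 0.10 and 9.48% passed the unadjusted test. Without control replicate 3, 7 of the 16 p53 targets were positive, with a median of -0.11. Within replicates 4 and above their median was -0.25. Of 16 genes of S phase and mitosis, which many repair genes follow through the cell cycle, 9 were positive with a median of 0.06, and *Aurkb*, a mitotic kinase, was lower (-1.19, SE 0.34, adjusted *P*=0.248, limma) and met the 2-fold call. Without control replicate 3, 5 of these 16 were positive, with a median of -0.14. The summed level of these 16 genes was 1274 to 3484 RPM in control and 1680 to 3751 RPM in cryptorchid libraries.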

How the data were processed

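RNA of about 200 GFRa1+/KIT- spermatogonia per library was measured by Smart-seq2, a PCR-amplified full-length method without molecular identifiers, in 5 control and 7 cryptorchid libraries. According to the methods and the submitters' processing notes, reads were checked with FastQC 0.11.8, trimmed with Trim Galore 0.6.6, mapped to mm10 with HISAT2 2.1.0 and counted over protein-coding genes in SeqMonk. The deposited values are log2 RPM (log2 of reads scaled to a common library total, by the authors) for 21859 genes, and 0 columns belonged to no sample. The study states that datasets with many duplicate reads were left out.

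Libraries were grouped by their sample titles. Reads behind each value were recovered from the lowest steps of each library, with a gene without reads taken as 0.9 reads, and 100% of values up to 1000 reads were whole within 0.1 reads. Read numbers cover counting error only. Since the values are not counts, limma 3.58.1 (lmFit, eBayes with trend, two-sided) in R 4.3.3 was fitted to all 12 libraries without covariates, over the 16932 genes whose mean RPM had a log2 above -1, with Benjamini-Hochberg adjustment over all of them. The call was 2-fold with an unadjusted *P*-value under 0.05, as in the study. The fit was tested on simulated data. Exact rank sum tests, two-sided, can give no *P*-value below 0.0025 here. Python 3.11.15 with pandas 2.3.3, numpy 2.4.6, scipy 1.17.1 and matplotlib 3.10.9 was used. Positions and transcript lengths are those of GENCODE M21 (GRCm38), and upstream sequences those of RefSeq. Of the 45 genes, 12 overlap exons of a gene on the other strand and 2 (*Rnf8* and *Pms2*) on the same strand. The longest overlaps with the other strand were 2130 bases for *Trp53bp1*, 1826 for *Lig3*, 1184 for *Rad54l* and 877 for *Apex1*.

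The 45 genes, pathways and other lists were chosen with earlier results of these data known. Values in each control library, with the lowest, median and highest of the 7 cryptorchid libraries, are given for genes with an unadjusted *P*-value under 0.05 or groups that do not overlap, the gene with the largest positive and the one with the largest negative difference of each pathway, where it has one, and the sensors, kinases and scaffolds *Atm*, *Atr*, *Prkdc*, *Parp1*, *Chek1*, *Chek2*, *Brca1*, *Brca2*, *H2ax* and *Trp53bp1*. Genes of the other lists are named where their unadjusted *P*-value was under 0.05, except 1 that is not reported here. Alternatives were other scalings, pseudocounts, filters, a common floor, weights per library, voom fitted to whole reads, a replicate block, a term for the 2 sets of libraries, each set alone, each library left out and, added after the data were seen, a transcript length correction and both replicates 3 left out.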

Additional observations from a re-analysis of the deposited data

Results flagged for a closer look

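In 10 of 90 groups of libraries, 1 library stood far from the others for a repair gene. These groups share the same 12 libraries and are not independent, and the share over all genes tested was not counted. Of the control libraries, replicate 3 was low for *Rad50* (5.63 log2 RPM) and *Apex1* (6.05), and replicate 5 was high for *Palb2* (5.47). Cryptorchid replicate 2 was low for *Mre11a* (5.67), *Rbbp8* (6.15) and *Rad54l* (5.64). Cryptorchid replicate 3 was high for *Mdc1* (8.06) and *Lig3* (8.60) and low for *Apex1* (5.58). Cryptorchid replicate 6 was low for *Ogg1* (1.27), a gene with 11 to 552 reads a library. Cryptorchid replicate 2 also had the lowest mean correlation with its own group over all genes (Pearson's r 0.775).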

How the results depend on the processing

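No label ties the replicate numbers to mice. The correlation of deviations between libraries of the same number ran from 0.049 to 0.411. Of the 5 controls, 4 correlated best with the cryptorchid library of their own number. Whether libraries of the same number share a mouse is not known, so the main fit was left unpaired. With the replicate number as a block, 1 repair gene was called (*Rad51c*, higher) beside 9.91% of all genes. In that fit 17 passed the unadjusted test (16 higher, 1 lower), or 37.8% beside 22.2% of all genes. The adjusted test was passed by 2 (*Rad51b* and *Rad51c*) beside 5.6%. Array weights gave 1 called (*H2ax*, lower) beside 9.36%. They gave 15 at the unadjusted test, or 33.3% beside 20% of all genes, and 1 at the adjusted test (*Rbbp8*) beside 2.81%. Within replicates 4 and above 2 were called and 13 passed the unadjusted test, and within replicates 1 to 3 the count was 0. With a term for the 2 sets, none was called beside 7.18% of all genes. *Blm*, *Rad51c* and *Xrcc4* (6.67%) then passed the unadjusted test beside 11.4%. Median centring, quantile normalization, voom and the transcript length correction each left 2 at the unadjusted test, *Rad51c* and *Xrcc4* (4.44%), beside 9.86%, 9.98%, 11.6% and 11.1% of all genes. With single libraries left out, 0 to 1 were called, 1 to 11 passed the unadjusted test (1 without control replicate 4, 11 without control replicate 3), none (0 each time) passed the adjusted test in limma, and the median of the 45 genes ran from -0.04 (without control replicate 3) to 0.36 (without control replicate 5). Without both replicates 3 it was 0.18. *H2ax* was called without control replicate 3 and without cryptorchid replicate 2, and *Rad51c* without control replicate 2. Over 27 alternative fits, *Rad51c* had an unadjusted *P*-value under 0.05 in 25 and *Xrcc4* in 26, and neither changed sign. *Blm* did so in 17 and *Rbbp8* in 9. The cause of these changes was not tested. With 5 and 7 libraries and a median residual SD of 0.52 for these genes, intervals of 26 of the 45 reached 2-fold.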
